A study of Mus musculus with 6 samples.

Results

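The genes described here are the sensors and transcription factors of the unfolded protein response, together with a pair of endoplasmic reticulum (ER) proteins of the same pathway. They are Ern1, Eif2ak3, Atf6, Atf6b, Xbp1, Creb3, Creb3l1, Creb3l2, Wfs1 and Manf, chosen by name for their role in the response. The choice was made with earlier results of these data known. All 10 were measured, each by 1 probe, among 16490 genes tested on the array. The scanner judged each of these probes well above background on all 6 arrays.

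When unfolded proteins build up in the ER, proteins in its membrane start the unfolded protein response. IRE1 (Ern1) splices the Xbp1 mRNA so that it encodes an active factor, PERK (Eif2ak3) phosphorylates eIF2alpha and slows translation, and ATF6 travels to the Golgi apparatus, where it is cut to release a transcription factor. These steps act on RNA and protein, so the mRNA level of a sensor is not a measure of its activity. Promoters of many ER chaperone genes hold an ER stress element, in which NF-Y binds the CCAAT part and ATF6 the CCACG part.

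The study asked which genes depend in neuronal cells on NF-Y, a transcription factor built of NF-YA, NF-YB and NF-YC. Neuro2a (N2a), a mouse neuroblastoma line, was transfected with vectors for RNAi of NF-YA and of NF-YC (knockdown, 3 arrays) or with a control vector (control, 3 arrays). Per the study's methods, the RNAi was of the miR type in a vector that also encodes EmGFP, and cells were kept for 2 days after transfection. The methods describe no sorting of transfected cells for these arrays, so a value is the mean over transfected and untransfected cells. The control samples are labelled Vector, and the methods name both an empty vector and a non-targeting RNAi vector as controls. Neither says which of these the control arrays used. No treatment to provoke ER stress is named for either group. The labels do not say that replicates were separate cultures, so p-values measure only the spread between these samples. In bulk RNA, fewer cells of a kind and less RNA per cell cannot be told apart.

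Both targeted subunits were lower on every knockdown array. Nfya fell by 0.76 on the log2 scale (limma adjusted p = 0.00128) and Nfyc fell by 1.81 (adjusted p = 0.000323), while Nfyb, the subunit that was not targeted, rose by 0.83 (adjusted p = 0.00131). Of neuroblast lineage markers, 11 of 12 were well above background on all 6 arrays, among them Phox2a, Hand2 and Isl1. None of the 12 was called, but by adjusted p alone 2 were lower and 3 higher, among them Phox2a (-0.49, limma adjusted p = 0.00308) and Isl1 (0.49, adjusted p = 0.00509). Their summed signal was 331 to 339 times the 75th percentile of the array in controls and 324 to 335 times in knockdown. Of 17 markers of glia, blood, endothelial, fibroblast and epithelial cells, 16 were tested, 11 were well above background on all arrays, and Cdh5, Krt18 and Epcam on none. Their summed signal was 1.90 to 2.14 in controls and 1.57 to 1.63 in knockdown, with Col1a1 among those called lower and Krt8 called higher. Their part in the results below was not tested. All 6 arrays lay on 1 slide, the controls and knockdown 1 in its first row and knockdown 2 and 3 in its other row.

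Values are log2 of the processed signal minus the 75th percentile of the same array, so 0 is the 75th percentile, and levels of different genes are not set against each other. Changes are knockdown minus control. A gene was called where the limma adjusted p was under 0.05 and the groups differed over 1.5-fold. Over all genes, 5.0% were called lower and 3.91% higher, 8.90% in all, and 15.8% were lower and 15.7% higher by adjusted p alone. Against these shares, 2 of the 10 genes were called lower (Wfs1 and Creb3) and 0 higher, while by adjusted p alone 7 were lower, 1 (Atf6b) was higher, and Ern1 and Creb3l2 passed in neither direction. Their median change was -0.37, beside 0.0053 over all genes. Knockdown arrays all lay below the controls for 7 of the 10, which held for 27.1% of all genes, and all above for 1, which held for 27.7%.

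**Figure D1:**
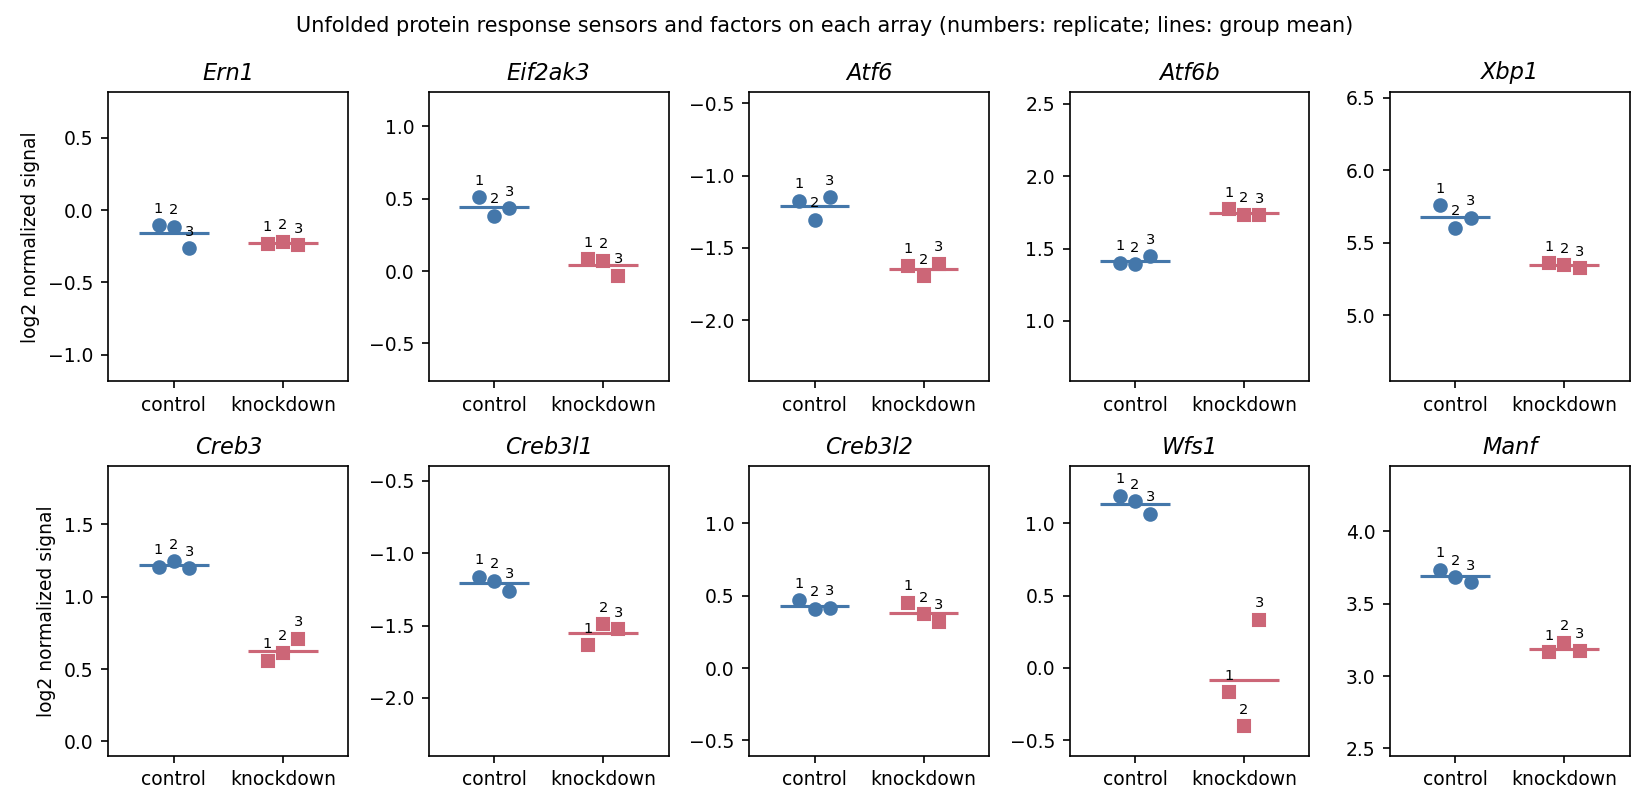
Log2 normalized signal (vertical axis, each panel spanning the same range on its own scale) of the 10 genes on the 3 control (circles) and 3 knockdown (squares) arrays, with replicate numbers and lines at group means. The groups are apart in 8 panels, 7 with knockdown below and 1 (Atf6b) above, and knockdown arrays spread widest for Wfs1.

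Promoter windows show where the letters CCAAT, the part of the element that NF-Y binds, stand near these genes. The windows are RefSeq sequence of build GRCm38.p6, from 250 bases before to 50 bases after an annotated start site, and were available for 7 of the 10 genes. Atf6, Creb3l1 and Manf had no window. The letters CCAAT were searched on both strands, and 37.4% of 32851 windows held them at least once. Of the 7 genes, 4 held them, and those 4 windows are printed because they include the gene with the largest change, the 1 that was higher and 1 that did not pass. Each is written 5′ to 3′ along the gene, with CCAAT, or ATTGG where it lies on the opposite strand, in capitals.
Eif2ak3, plus strand, chr6:70844265-70844564: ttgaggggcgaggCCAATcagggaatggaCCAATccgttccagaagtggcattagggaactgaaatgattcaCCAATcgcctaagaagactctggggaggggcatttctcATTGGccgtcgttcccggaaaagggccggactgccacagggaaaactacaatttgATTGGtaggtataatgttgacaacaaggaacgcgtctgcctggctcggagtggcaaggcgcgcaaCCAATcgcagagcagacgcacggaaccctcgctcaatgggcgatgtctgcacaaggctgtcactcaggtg
Creb3l2, minus strand, chr6:37442099-37442398: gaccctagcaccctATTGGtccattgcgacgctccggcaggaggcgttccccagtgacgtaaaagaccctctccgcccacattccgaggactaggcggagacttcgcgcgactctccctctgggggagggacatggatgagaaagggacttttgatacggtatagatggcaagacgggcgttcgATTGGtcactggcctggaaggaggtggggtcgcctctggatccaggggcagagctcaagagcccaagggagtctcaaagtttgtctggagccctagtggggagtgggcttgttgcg
Atf6b, plus strand, chr17:34646896-34647195: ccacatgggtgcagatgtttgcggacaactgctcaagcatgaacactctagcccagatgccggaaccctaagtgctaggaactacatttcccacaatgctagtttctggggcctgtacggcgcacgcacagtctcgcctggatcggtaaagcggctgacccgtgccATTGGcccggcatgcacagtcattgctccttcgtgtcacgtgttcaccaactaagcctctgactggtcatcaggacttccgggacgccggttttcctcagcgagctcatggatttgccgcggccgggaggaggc
Wfs1, minus strand, chr5:36988933-36989232: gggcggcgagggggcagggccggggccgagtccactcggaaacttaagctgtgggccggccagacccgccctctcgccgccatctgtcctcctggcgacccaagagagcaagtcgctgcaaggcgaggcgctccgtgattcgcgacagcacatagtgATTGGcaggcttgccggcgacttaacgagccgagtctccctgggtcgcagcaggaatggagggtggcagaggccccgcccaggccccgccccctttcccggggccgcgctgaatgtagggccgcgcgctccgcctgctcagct

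The Eif2ak3 window held CCAAT 6 times, between positions -237 and -16 counted from the start site. Only 0.0791% of all windows held 6 or more. Creb3l2 held 2, which 11.7% of windows reached or passed, and Atf6b and Wfs1 held 1 each, at about the same distance from the start site (-84 to -80 and -93 to -89). Windows of Ern1, Xbp1 and Creb3 held none. Eif2ak3 with 6 was 0.40 lower and Creb3l2 with 2 changed by -0.05. With 1 each, Atf6b changed by 0.33 and Wfs1 by -1.22. With 0, Creb3 changed by -0.59, Xbp1 by -0.33 and Ern1 by -0.07. Whether the change depends on these letters was not tested, and letters outside the window or near another start site are not counted. None of the 7 windows held the ER stress element (CCAAT, 9 bases of any kind, then CCACG, in 0.119% of all windows), its second form (ATTGG, 1 base of any kind, then CCACG, 0.0365%), the element bound by XBP1 and ATF6 (TGACGTGG, 0.676%) or the cAMP response element that CREB proteins bind (TGACGTCA, 1.79%). The first and second of these contain CCAAT, which the CCAAT count includes. A match of letters is not a measured binding site.

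**Figure D2:**
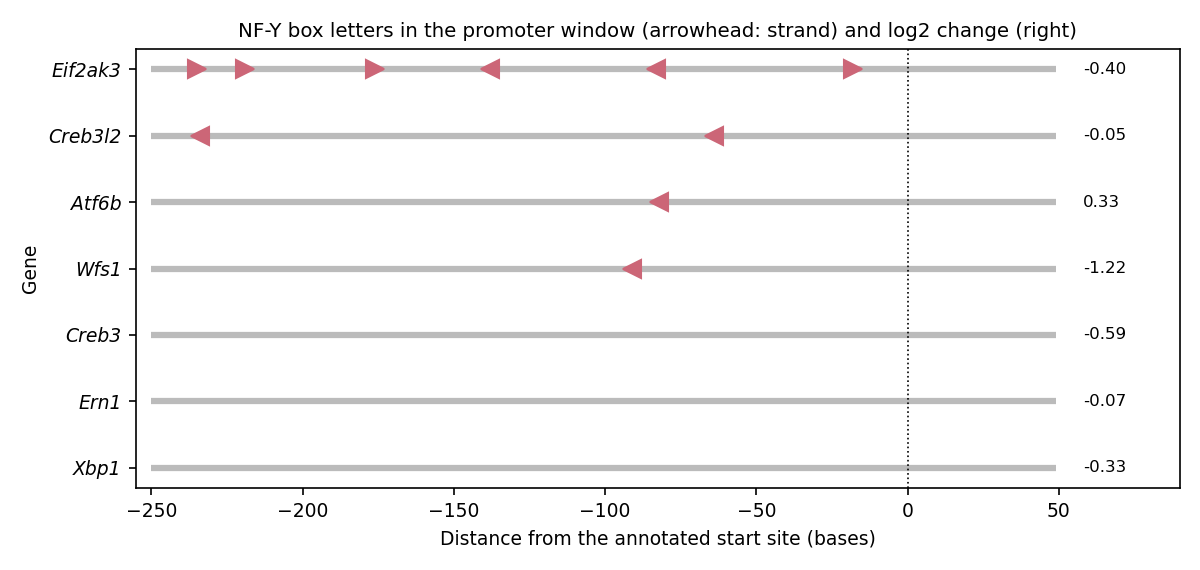
Positions of the letters CCAAT (triangles, pointing right on the gene's strand and left on the other) between 250 bases before and 50 after the annotated start site (horizontal axis, bases) for the 7 genes with a window, with each gene's log2 change at the right. Eif2ak3 carries 6, Creb3l2 carries 2, Atf6b and Wfs1 carry 1 each, and the other 3 windows are empty.

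Among the sensors, Eif2ak3 and Atf6 were lower in knockdown and Ern1 was not shown to differ. Eif2ak3, which encodes PERK, gave 0.51, 0.38 and 0.43 in control replicates 1 to 3 and 0.08, 0.07 and -0.03 in knockdown replicates 1 to 3. All knockdown arrays lay under the lowest control. The change was -0.40 (SE 0.059, n = 3 per group, limma adjusted p = 0.00892), or 75.7% of control, short of the 1.5-fold minimum.

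Ern1, which encodes the kinase and nuclease IRE1alpha, gave -0.11, -0.12 and -0.26 in controls and -0.23, -0.22 and -0.24 in knockdown. The lowest array of all was control replicate 3, so the groups overlapped. The change of -0.07 had a 95% interval from -0.22 to 0.08 (limma adjusted p = 0.454), which lies within the 1.5-fold minimum on both sides.

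The ATF6 pair moved apart. Atf6 encodes the ER-anchored precursor of an activating factor, and gave -1.17, -1.31 and -1.15 in controls and -1.62, -1.70 and -1.61 in knockdown. Knockdown arrays were all lower, by 0.43 on average (SE 0.061, adjusted p = 0.00809). Atf6b encodes a relative with the same anchored layout, known as a weaker activator. It gave 1.40, 1.39 and 1.45 in controls and 1.77, 1.73 and 1.73 in knockdown. It was the only 1 of the 10 with all knockdown arrays above all controls, with a change of 0.33 (SE 0.041, adjusted p = 0.00557). The change of Atf6 minus that of Atf6b was -0.76 within arrays, with no overlap of the groups. That followed from the values above, as knockdown arrays all lay below the controls for Atf6 and above them for Atf6b. The difference and its p-value below are therefore no further test of either gene. This pair was 1 of 4 pairs of relatives chosen after their values were seen. An exact permutation test, two-sided, gave p = 0.1 for each pair (adjusted over the 4 pairs 0.1), the smallest value that 20 assignments of 3 against 3 arrays allow.

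Xbp1, whose spliced mRNA encodes the factor that turns on ER chaperone and degradation genes, was lower as well. It gave 5.76, 5.60 and 5.67 in controls and 5.36, 5.35 and 5.32 in knockdown. The change was -0.33 (SE 0.055, adjusted p = 0.0125), or 79.3% of control. The array has 1 probe for Xbp1 and its position in the mRNA is not given in the sources used here, so spliced and unspliced mRNA are not separated.

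The 3 CREB3-family genes among the 10 encode factors held in the ER membrane until they are cut, as ATF6 is. Of their relatives outside the 10, Creb3l3 changed by -0.29 (limma adjusted p = 0.0282) and Creb3l4 by -0.17 (adjusted p = 0.279). Creb3, also known as Luman, gave 1.21, 1.25 and 1.20 in controls and 0.56, 0.61 and 0.71 in knockdown. Every knockdown array lay well under the controls. It fell by 0.59 (SE 0.055, adjusted p = 0.00245) to 66.5% of control, so close to the fold minimum (0.58 on the log2 scale) that the call was lost under quantile normalization (-0.56) and when control replicate 2 (-0.57) or one of knockdown replicates 1 (-0.55) and 2 (-0.58) was left out. The adjusted p stayed below 0.05 in all 20 alternatives.

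Creb3l1, also called OASIS and known from collagen-secreting cells and astrocytes, gave -1.16, -1.19 and -1.26 in controls and -1.64, -1.49 and -1.53 in knockdown. Knockdown arrays were all lower, by 0.35 on average (SE 0.059, adjusted p = 0.0139). Creb3l2, known for its part in secretory pathway genes of cartilage, gave 0.47, 0.41 and 0.42 in controls and 0.45, 0.37 and 0.32 in knockdown. Its groups overlapped, and the change of -0.05 had a 95% interval from -0.18 to 0.08 (adjusted p = 0.545). Within arrays the change of Creb3 was 0.24 further below 0 than that of Creb3l1 and 0.54 further than that of Creb3l2, without overlap in either case, at the same exact permutation p of 0.1.

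Wfs1 showed the largest change of the 10 genes. It encodes wolframin, an ER membrane protein involved in calcium balance and in restraint of ATF6, and its loss causes Wolfram syndrome. The log2 values were 1.19, 1.15 and 1.07 in controls and -0.17, -0.40 and 0.33 in knockdown. On the linear scale the processed intensity was 1722, 1638 and 1576 in controls and 664, 543 and 919 in knockdown. The controls lay close together and all knockdown arrays were far below them, but knockdown replicate 3 kept more signal than the other two. Wfs1 fell by 1.22 (SE 0.196, adjusted p = 0.0121) to 43.0% of control. Its knockdown SD was 0.376, larger than that of 97.6% of genes well above background on all arrays, against 0.064 in controls. Knockdown replicate 1, on the same slide row as the controls, was 1.31 below their mean. With slide row as a block the adjusted p was 0.0815, and without control replicate 1 it was 0.0520, so the call was lost in both while the change stayed at -1.31 and -1.19.

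Manf encodes a small ER luminal protein that is secreted under stress and protects neurons. It gave 3.74, 3.68 and 3.65 in controls and 3.17, 3.23 and 3.18 in knockdown. Replicates were close within each group and the groups were far apart. The change was -0.50 (SE 0.046, adjusted p = 0.00238), or 70.8% of control, the smallest adjusted p of the 10 genes without passing the fold minimum. Its paralog Cdnf went the other way. Cdnf gave -3.50, -3.45 and -3.47 in controls and -2.82, -2.92 and -2.72 in knockdown, and rose by 0.65 (adjusted p = 0.00266). The within-array difference of the changes, Manf minus Cdnf, was -1.15, at the exact permutation p of 0.1. As for the ATF6 pair, that p was fixed once the groups of both genes lay apart in opposite directions. The rise of Cdnf was under the fold minimum after quantile normalization (0.56) and with the normexp background correction (0.40 with 1 of its scalings). Its lowest change over the 20 alternatives was 0.34.

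With slide row as a block, the estimate rests on knockdown replicate 1 against the controls of the same row. The change then kept its sign in 9 of the 10 genes, all but Creb3l2 (0.019). By adjusted p, 3 were lower (Creb3, Creb3l1 and Manf) and 1 higher (Atf6b), while Eif2ak3 (0.0890), Atf6 (0.0808), Xbp1 (0.105) and Wfs1 (0.0815) no longer passed.

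**Figure D3:**
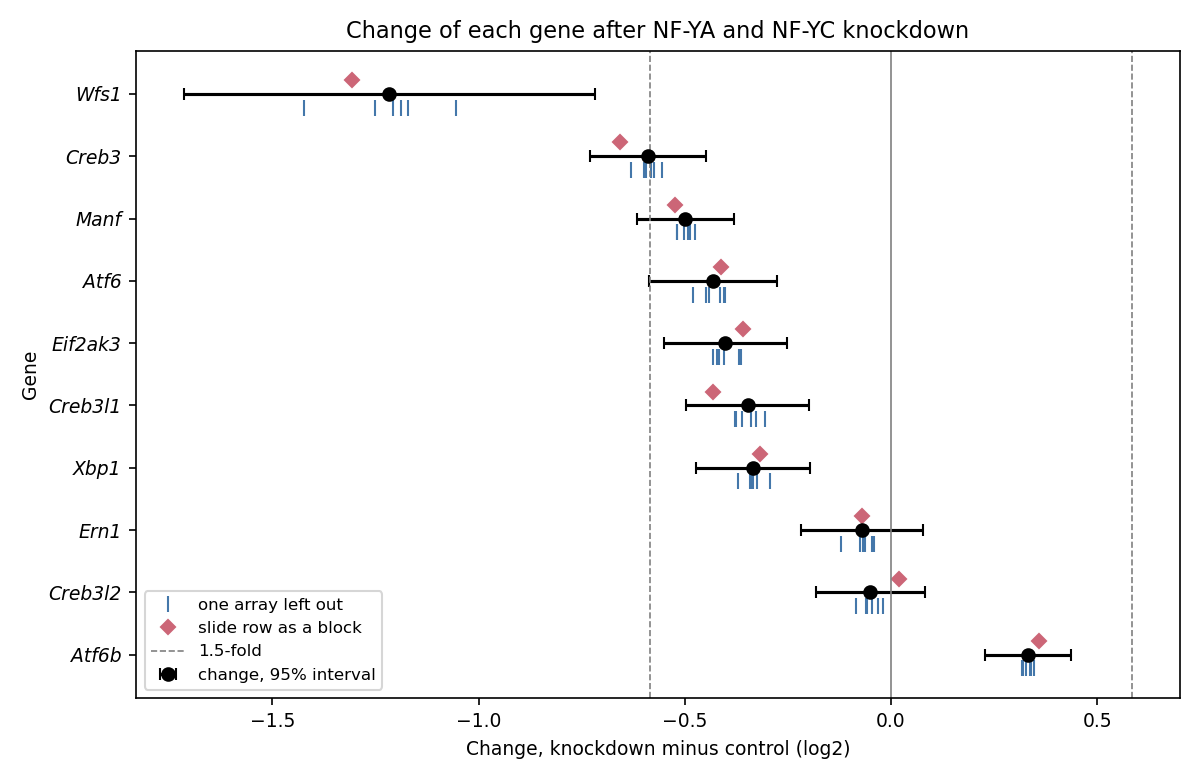
Change of each gene (horizontal axis, log2, knockdown minus control) with its 95% interval (black), the values with one array left out (ticks) and the value with slide row as a block (diamonds), beside dashed lines at 1.5-fold. Wfs1 lies at -1.22 with the widest interval, Creb3 sits on the 1.5-fold line, and Atf6b at 0.33 is the 1 gene whose interval lies above 0.

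By a rule on all 6 array values, each set against the gene's own control mean, the genes with the pattern nearest to Creb3 were Tmem38a, Rnf186 and Kiss1r, at root mean square distances of 0.028, 0.029 and 0.031 on the log2 scale. Those nearest to Wfs1 were Papln, Rgs4 and Itih2, at 0.143, 0.145 and 0.155. The distances to Wfs1 lay between its control SD (0.064) and its knockdown SD (0.376), and those to Creb3 between 0.026 and 0.077, the SDs of Creb3. The search took the smallest distances over all genes tested, so it finds near genes by design. Tmem38a was called lower, Rnf186 and Kiss1r were not called, and Papln, Rgs4 and Itih2 were called lower.

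The lists of other pathway genes, here and below, were also written with earlier results of these data known. Of 27 other mediators and regulators of the response, 2 (7.41%) were called lower and 2 higher, near the 5.0% and 3.91% of all genes. By adjusted p alone 5 (18.5%) were lower and 6 (22.2%) higher, beside 15.8% and 15.7% of all genes, and the median change was -0.07. Cisd2, an ER membrane protein whose loss also causes a form of Wolfram syndrome, gave 2.86, 2.80 and 2.83 in controls and 1.46, 1.40 and 1.40 in knockdown. It fell by 1.41 (SE 0.042, adjusted p = 0.000323), with replicates closer together than those of Wfs1. Of the 3 other kinases of eIF2alpha, the substrate of PERK, Eif2ak4 (GCN2, which senses amino acid lack) fell by 0.66 (adjusted p = 0.00154), whereas Eif2ak2 (PKR, which senses double-stranded RNA) rose by 0.82 (adjusted p = 0.00489, and 0.0592 with slide row as a block). Eif2ak1 (HRI, which senses heme lack) was 0.20 higher (adjusted p = 0.0287), under 1.5-fold. Ppp1r15b, a phosphatase subunit that reverses PERK's mark, was 0.39 higher (adjusted p = 0.0077), and Traf2, an adaptor of IRE1, 0.49 lower (adjusted p = 0.00837), both under 1.5-fold. Atf4, the factor translated when PERK is active, changed by -0.07 (adjusted p = 0.365), and Ddit3, which encodes CHOP, by -0.20 (adjusted p = 0.0527). Knockdown arrays of Ddit3 all lay below the controls, which held for 27.1% of all genes. Its limma adjusted p was under 0.05 in 7 of 20 alternatives, and the lowest with an array left out was 0.0778. Mbtps1 and Mbtps2, the Golgi proteases that cut ATF6, changed by -0.18 and -0.15 (adjusted p = 0.0907 and 0.123), and the mean over both Mbtps1 probes was 0.023. Rtcb, the ligase that completes Xbp1 splicing, changed by -0.0047 (adjusted p = 0.954).

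Of 37 target genes of ATF6 and XBP1, 7 (18.9%) were called lower and 0 higher, beside 5.0% and 3.91% of all genes. By adjusted p alone 17 (45.9%) were lower and 1 (2.70%) higher, beside 15.8% and 15.7%, and the median change was -0.21. Ssr1, a subunit of the translocon-associated complex, fell by 1.57 (adjusted p = 0.000384). Hsp90b1, the chaperone GRP94, gave 6.03, 6.02 and 6.09 in controls and 4.54, 4.42 and 4.62 in knockdown, and fell by 1.52 (adjusted p = 0.000415). Sdf2l1, a cofactor of the chaperone BiP, fell by 1.24, the oxidase gene Ero1b by 1.17 and the disulfide isomerase gene Pdia4 by 0.71. The other two were Edem1, of ER-associated degradation, at -0.70, and Ssr3, of the same complex as Ssr1, at -0.67. Hspa5, which encodes BiP, gave 6.13, 6.04 and 6.15 in controls and 6.14, 6.14 and 6.12 in knockdown, a change of 0.03 with a 95% interval from -0.09 to 0.15 (adjusted p = 0.737). Dnajb9, a BiP cochaperone known as an XBP1 target, was the 1 gene higher by adjusted p, at 0.34 (adjusted p = 0.0096).

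The ER stress element stood in the windows of genes on both sides of that contrast. Its sites at Hspa5, Hsp90b1 and Ero1b are printed because these chaperone and oxidase genes share the element and differ in change. The CCAAT and CCACG parts are in capitals, and each site is written in the direction in which it reads CCAAT first.
Hspa5, chr2:34772025-34772043, plus strand: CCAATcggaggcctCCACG
Hsp90b1, chr10:86705638-86705656, minus strand: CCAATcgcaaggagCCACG
Hsp90b1, chr10:86705533-86705551, plus strand: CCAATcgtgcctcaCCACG
Ero1b, chr13:12565682-12565700, minus strand: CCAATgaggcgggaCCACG
Of the 37 target genes 33 had a window. The element was in 10 of them, of which 2 were called lower, with a median change of -0.21. It was not in 23, of which 5 were called lower, with a median of -0.22. Some of those 23 held the second form of the element. Either form was in 12 windows, of which 2 were of genes called lower, with a median of -0.16. Whether the element bears on the change was not tested.

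Of 27 target genes of PERK, ATF4 and CHOP, 26 were tested and 18 did not pass by adjusted p. In each direction 1 (3.85%) was called, near the 5.0% lower and 3.91% higher of all genes. By adjusted p alone 5 (19.2%) were lower and 3 (11.5%) higher, beside 15.8% and 15.7%, and the median was -0.10. Chac1, which breaks down glutathione, fell by 0.59 (adjusted p = 0.00237), and lost the call in 6 of 20 alternatives, with quantile normalization (-0.53), normexp by percentile (-0.55) or quantile scaling (-0.49), array weights (-0.58), a 2-fold minimum, and without knockdown replicate 2 (-0.55). Tnfrsf10b, the death receptor DR5, rose by 0.90 (adjusted p = 0.00168). It lost the call in 2 of 20 alternatives, and its lowest change over the 20 was 0.58. Of 7 mRNAs known to be cut by IRE1, 6 were tested and 0 were called in either direction, while 4 were lower and 0 higher by adjusted p alone, beside 15.8% and 15.7% of all genes, with a median of -0.26. Scara3, the only 1 of the 6 with a change above 0 (0.17, limma adjusted p = 0.676), was well above background on 0 arrays. It is counted in that median. Sparc, a secreted matrix protein, was nearest to the fold minimum at -0.58 (adjusted p = 0.00155).

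**Figure D4:**
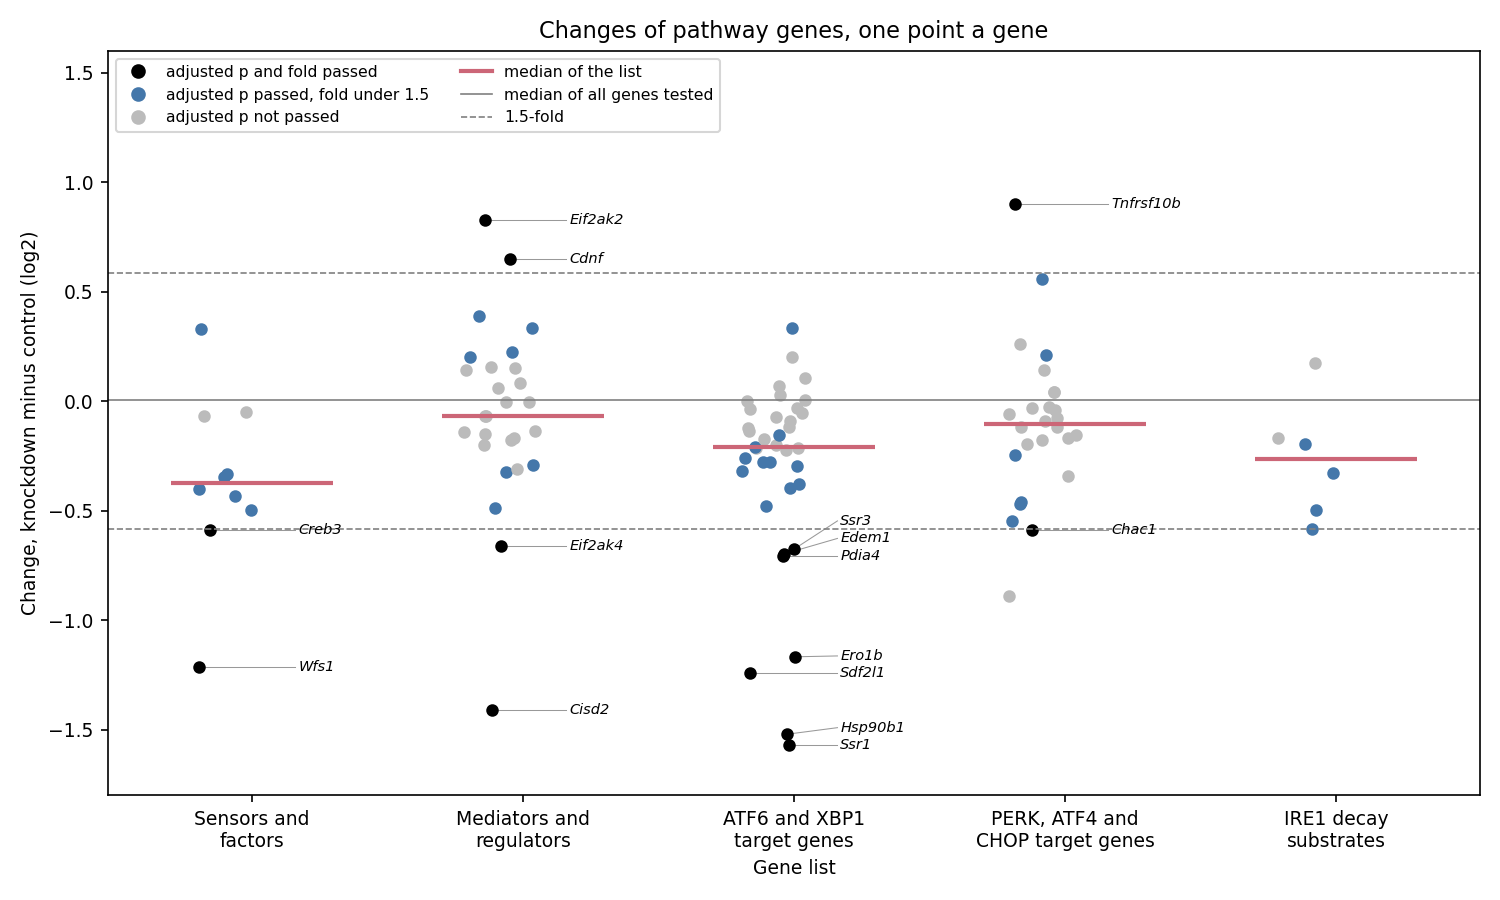
Change of each gene (vertical axis, log2, knockdown minus control) for the 10 sensors and factors and for 4 lists of other pathway genes, with list medians as thick lines, the median of all genes as a thin line and 1.5-fold as dashed lines. Called genes are black and named. Medians run from -0.37 for the sensors and factors to -0.07 for the mediators and regulators, and the 7 called ATF6 and XBP1 targets all lie below 0.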

How the data were processed

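RNA of 3 control and 3 knockdown cell samples was measured on single-colour Agilent mouse arrays. The authors read the scans with Feature Extraction 10.10.1.1 of Agilent. The deposited tables hold processed spot intensity values, linear and already corrected for background, with flags for outliers and signal well above background. The deposited series matrix holds log2 values, which differed between arrays as the scaled scanner values did to within 0.0076 over 43557 probes.

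Control and outlier spots were left out, log2 intensity was set against the array's 75th percentile, and spots of a probe were averaged. Probes that reached the 20th percentile on all arrays of a group were kept (42126 of 55681). Genes were named through RefSeq (GRCm38.p6) by accession, with 25869 of 26392 curated accessions matched, and read from the probe of highest mean signal. The array annotation used mm9, whereas the coordinates printed here, of promoter windows and element sites, are of GRCm38.p6. From 61.9% to 66.2% of spots per array were well above background, and correlations within a group were 0.989 to 0.994. The number of arrays limits the precision.

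The 2 groups were fitted with limma 3.58.1 under R 4.3.3 (two-sided moderated tests from lmFit and eBayes, no covariates), and p was adjusted after Benjamini and Hochberg across the probes tested. The fit and the calling rule were tested on simulated log2 values, with changes added only to probes well above background on all arrays. Scaling, outlier removal, filtering and gene matching were not part of that test. The members and lists were chosen with earlier results of these data known. Lists were written from general knowledge and are described by counts and medians. The genes named were the members, the NF-Y subunits, Hspa5, Hsp90b1, Ddit3, Atf4, Mbtps1, Mbtps2, Rtcb, up to 5 called genes per list by size of change, and the 3 nearest in pattern to each called member. Edem1, Ssr3, Dnajb9, Ppp1r15b, Traf2, Eif2ak1, Creb3l3, Creb3l4, Sparc, Scara3, Phox2a, Isl1, Col1a1 and Krt8 were named after their values were seen. Some marker genes are not reported here by name. Alternatives were other scalings, normexp background correction, the series matrix, other filters and fold minimums, a variance trend, array weights, replicate and slide row blocks, averaged probes, and each array left out.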

Additional observations from a re-analysis of the deposited data

How the results depend on the processing

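Xbp1 splicing, protein and sensor activity were not measured. Of the 20 alternatives, 2 with normexp were set after the data were seen, on the median spot signal because the tables hold no mean. The differences between the 4 pairs of relatives kept their sign in all 20. For Atf6 with Atf6b and Manf with Cdnf, that follows from each gene keeping its own sign.

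All 10 genes kept their direction except Creb3l2 with slide row as a block (0.019). Without the fold minimum, 7 were called lower (Eif2ak3 -0.40, Atf6 -0.43, Xbp1 -0.33, Creb3l1 -0.35 and Manf -0.50 besides Creb3 and Wfs1) and 1 higher (Atf6b 0.33). A single gene was called lower after quantile normalization (Creb3 lost, -0.56), at a 2-fold minimum (Creb3 lost at -0.59), with the replicate block (Wfs1 lost at -1.22, adjusted p = 0.0553) and with the slide row block (Wfs1 lost at -1.31). Leaving out 1 array moved the count between 1 and 2, Creb3 between -0.63 and -0.55, and Wfs1 between -1.42 and -1.05. Control and knockdown arrays of the same replicate number shared little deviation from their group means (correlations 0.018, 0.067 and 0.0025). The labels do not say whether samples were paired. With the replicate block 4 genes were lower and 1 higher by adjusted p alone. By adjusted p, Creb3l1 was also lost without control replicate 1 or 2, and Xbp1 without knockdown replicate 3. At the 2-fold minimum Nfya (-0.76) and Nfyb (0.83) were not called.

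Over all genes, 2602 were lower and 2597 higher without the fold minimum, 286 and 181 at 2-fold, and 275 or 282 higher with normexp by percentile or quantile scaling. Mediators called lower and higher numbered 5 and 6 without the fold minimum, 1 and 0 at 2-fold, and 1 higher with quantile normalization, either normexp setting or slide row. ATF6 and XBP1 targets numbered 17 and 1 without the fold minimum and 4 lower at 2-fold. PERK, ATF4 and CHOP targets numbered 5 and 3 without it and 0 and 0 at 2-fold. Of these, 0 were lower with quantile normalization or array weights and 2 with a variance trend, and 0 were higher with normexp and quantiles and 2 with slide row. With an array left out their range was 0 to 2 lower and 1 to 2 higher. IRE1 substrates called lower numbered 4 without the fold minimum, 1 with quantile normalization, normexp by percentile, the series matrix or array weights, and 0 to 2 with an array left out. Genes that passed in neither direction changed sign as follows. Atf4 was 0.041 with quantile normalization and 0.016 with normexp and quantiles. Rtcb was 0.035 and 0.062 in those settings, 0.013 with normexp by percentile, 0.048 with slide row, and from -0.031 to 0.013 with an array left out. Hspa5 was -0.0096 with normexp by percentile and -0.0066 without control replicate 2. Mbtps1 was 0.023 as the mean of its probes.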
